A study of Homo sapiens with 15 samples.

Results

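UBB is 1 of the human genes that encode ubiquitin, and its RNA was followed over 5 established neuroblastoma cell lines. It was selected on its measured level, since earlier values of these data had shown it very low in NGP. Its members were taken as every probe set that named UBB and no other gene. This gave 2 probe sets, 11732126_x_at and 11744327_x_at, for 1 of the 18244 genes that had a probe set naming no other gene. Both carry the suffix _x_at, which marks probe sets with probes that can also match related transcripts. No probe set named UBB together with another gene.

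Each of the lines, namely NGP, KELLY, SH-SY5Y, SK-N-AS and BE(2)-C, was measured on 3 arrays. All were grown in DMEM with 10% fetal bovine serum and no treatment is given, so the line is the group, and a line stands for a single tumour. NGP, BE(2)-C and KELLY are generally known to carry MYCN amplification and SK-N-AS and SH-SY5Y are not, and BE(2)-C and SH-SY5Y are clones of older lines. The labels number the arrays and do not tie the numbers to separate cultures. The p-values therefore cover only the spread among the arrays of a line, and that spread may be technical. In RNA of whole cultures, fewer cells with a transcript and less of it per cell cannot be told apart.

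Ubiquitin is a small protein that is attached to other proteins through a cascade of activating (E1), conjugating (E2) and ligating (E3) enzymes, and it directs many of them to the proteasome. UBB is a polyubiquitin gene. It encodes head-to-tail ubiquitin repeats that deubiquitinases cut apart, and it is raised under heat shock and other protein stress. Ubiquitin is also recycled from chains by deubiquitinases. The values below describe UBB and the genes that act with ubiquitin, and not the total of ubiquitin RNA.

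The RefSeq table used here (GRCh38.p14) gives 2 overlapping windows of 300 bases for UBB on chromosome 17, each reaching from 250 bases before to 50 after an annotated start, and both lie inside the span of the gene. The first base of the gene span and the sequence before it were not among the windows used here. The more upstream window is printed to show the sequence at one of the annotated starts. It runs on the plus strand at chr17:16381040-16381339, and the capitals mark matches on either strand to GGGCGG, the core of a GC box, to CCAAT and to TGACG, the core of a cAMP response element.
UBB: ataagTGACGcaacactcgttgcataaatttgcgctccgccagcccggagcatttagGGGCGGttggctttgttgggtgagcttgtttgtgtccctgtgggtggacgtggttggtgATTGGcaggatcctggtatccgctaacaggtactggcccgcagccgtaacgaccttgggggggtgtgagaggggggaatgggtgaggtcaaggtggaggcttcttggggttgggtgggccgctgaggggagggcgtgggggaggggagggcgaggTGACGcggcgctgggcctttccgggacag
This window held 1 match to GGGCGG, which 45% of 35114 windows of the same length in the table held at least once, 1 match to CCAAT (34.6%) and 2 to TGACG (24.6%). It held none to TATAAA (11.5%) or to GAANNTTC, a pair of heat shock element units (6.77%). CG dinucleotides numbered 18, against a median of 14 over all windows. A match is a match of letters alone, and the arrays measured RNA and nothing at this window.

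UBB was bright in 3 lines, far dimmer in KELLY and dimmest in NGP. In NGP probe set 11732126_x_at gave intensities of 22.3, 18.4 and 15.7, and 11744327_x_at gave 31.0, 29.1 and 28.7. In KELLY the same probe sets gave 1057, 1075 and 1123, and 1101, 1044 and 1165. The arrays of these lines did not overlap on either probe set, nor did those of either line with the arrays of any other line. The share of all genes with such a separation was not counted, and the NGP values are those that chose the gene.

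In the bright lines probe set 11744327_x_at gave 20818, 18357 and 20373 for SK-N-AS. It gave 12183, 10041 and 11237 for SH-SY5Y and 23374, 22715 and 22407 for BE(2)-C. Probe set 11732126_x_at gave 18421, 16622 and 18321 for SK-N-AS, 10790, 9125 and 10330 for SH-SY5Y, and 20997, 20718 and 20272 for BE(2)-C. All 3 arrays of BE(2)-C were above those of SK-N-AS, and these above those of SH-SY5Y, on both probe sets. This holds for the deposited scale, and the share of all genes with such an order was not counted either.

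**Figure D1:**
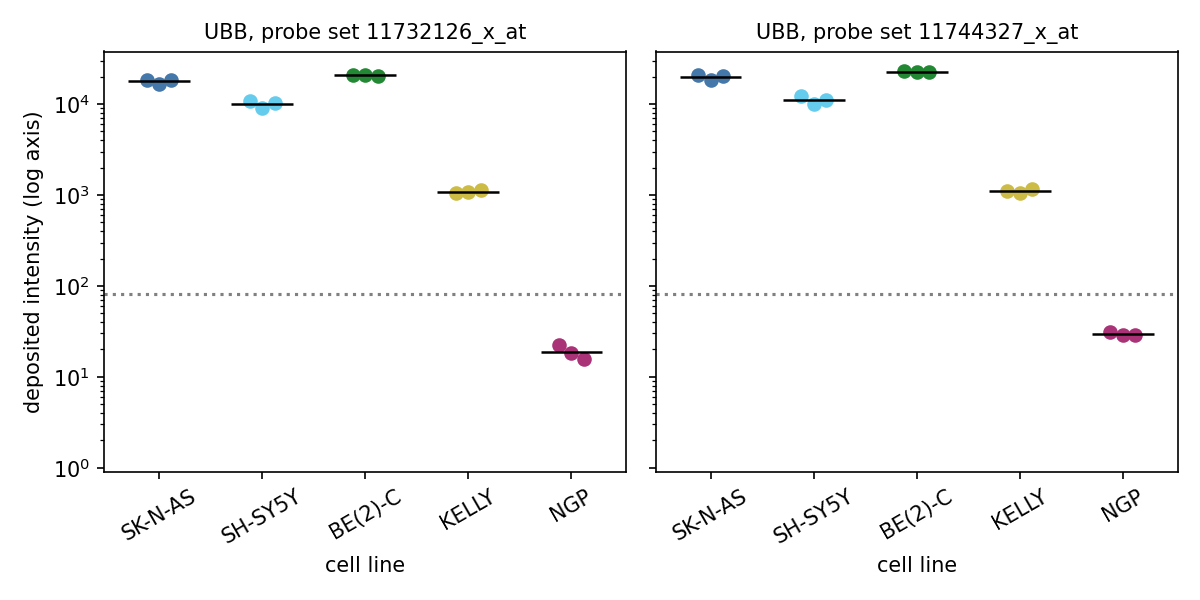
Deposited intensity of UBB (log axis) by cell line for its 2 probe sets, with a point for each of 3 arrays per line and a bar at the line mean. The dotted line is the intensity of 80.6 that a gene had to reach in its brightest line to be tested; the NGP arrays lie below it at 15.7 to 31.0, and the KELLY arrays lie at 1044 to 1165.

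As line means, probe set 11744327_x_at had 29.6 ± 1.22 for NGP, 1103 ± 60.8 for KELLY, 11154 ± 1074 for SH-SY5Y, 19850 ± 1311 for SK-N-AS and 22832 ± 494 for BE(2)-C (SD, n = 3 each). Probe set 11732126_x_at gave 18.8 ± 3.31, 1085 ± 34.6, 10082 ± 860, 17788 ± 1011 and 20662 ± 366 in the same order of lines (SD, n = 3 each). The probe sets thus ranked the 5 lines alike. Their line means differed least in KELLY, by 0.02 on the log2 scale, and most in NGP, by 0.64, with 11744327_x_at the higher. 

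The mean intensity in NGP was lower than in KELLY by 37.3-fold on probe set 11744327_x_at and by 57.6-fold on 11732126_x_at. Against SH-SY5Y, SK-N-AS and BE(2)-C the ratios on 11744327_x_at were 377-fold, 671-fold and 772-fold, and on 11732126_x_at they were 535-fold, 944-fold and 1097-fold. These differences of NGP chose the gene, so they are given as a description with no test. The NGP values lay below the intensity of 80.6 used as a filter, where the share of background is unknown, and no detection calls were used here, so the size of the ratios is uncertain. A level of UBB RNA of 0 in NGP cannot be told apart from a low one.

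NGP minus the mean of the other 4 line means was -8.14 on probe set 11744327_x_at and -8.66 on 11732126_x_at (log2 of intensity + 1). In the order of all 12721 tested genes by the smallest gap between NGP and another line, UBB came 5th with a gap of -5.17 from KELLY, after CYB561 (-5.88), RAB4A (-5.80), CEP15 (-5.72) and ZC3HAV1L (-5.32). On centred arrays it came 2nd, with a gap of -5.47. The rank rests on the NGP values that chose the gene and that lie below the filter. The next genes on the deposited scale were SH3BGRL (-4.94), NUDT19 (-4.83) and FABP5 (-4.82).

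KELLY was the other line with less UBB RNA than the 3 bright lines, though UBB was not dim there. On probe set 11744327_x_at UBB had a mean log2 value of 10.1 in KELLY, above the 7.76 of the median tested gene in that line. The choice of UBB rested on NGP, and the 6 contrasts among the remaining lines were tested on probe set 11744327_x_at in a limma model of all genes. KELLY was lower than SK-N-AS by -4.17 (SE 0.08, adjusted p = 2.79e-24), than BE(2)-C by -4.37 (SE 0.08, adjusted p = 5.35e-24) and than SH-SY5Y by -3.33 (SE 0.08, adjusted p = 1.21e-21) on the log2 scale. As ratios of mean intensity these were 18.0-fold, 20.7-fold and 10.1-fold. A gene was called where the Benjamini-Hochberg adjusted p over all tested genes was under 0.05 and the difference at least 1. By this rule 385 of 12721 genes, or 3.03%, were lower in KELLY than in all 3 of these lines, and UBB came 21st among all genes by its smallest gap. In the single contrasts 49.1% of genes were called lower in KELLY than in SK-N-AS, 39.2% than in BE(2)-C and 5.32% than in SH-SY5Y.

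Lines differed in the brightness of the whole array, so each contrast was also computed with every array centred on its median gene. The median array intensity ran from 51.9 to 126, and the median tested gene was lower in KELLY than in SK-N-AS by -0.98 and higher in SK-N-AS than in SH-SY5Y by 1.23 on the log2 scale. On centred arrays KELLY lay below SK-N-AS by -3.05, below BE(2)-C by -3.46 and below SH-SY5Y by -3.55 (SE 0.06 each, limma, adjusted p = 4.73e-18, 3.9e-18 and 3.79e-18). There 13.5%, 8.36% and 7.8% of genes were called lower in these contrasts, and 230 genes, or 1.81%, in all 3. NGP minus KELLY was -5.47 and NGP minus SK-N-AS -8.53 on that scale, again without a test.

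The order of the bright lines changed with the scale. On the deposited scale SH-SY5Y was called lower than BE(2)-C by -1.04 (SE 0.08, limma, adjusted p = 3.75e-12), as were 53.6% of all genes, and the median gene differed by -1.05 between these lines. On centred arrays the difference was 0.10 with a 95% interval of -0.03 to 0.22 (limma, adjusted p = 0.141), so these neighbours did not differ beyond their spread. The difference SK-N-AS minus SH-SY5Y was 0.83 on the deposited and -0.50 on the centred scale, and that of SK-N-AS minus BE(2)-C was -0.20 and -0.41. The adjusted p of these 4 values (limma) ran from 2.04e-10 to 0.0213, and none reached the difference of 1 needed for a call. Without SH-SY5Y replicate 2 the difference of SH-SY5Y from BE(2)-C was -0.96 and no longer called.

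**Figure D2:**
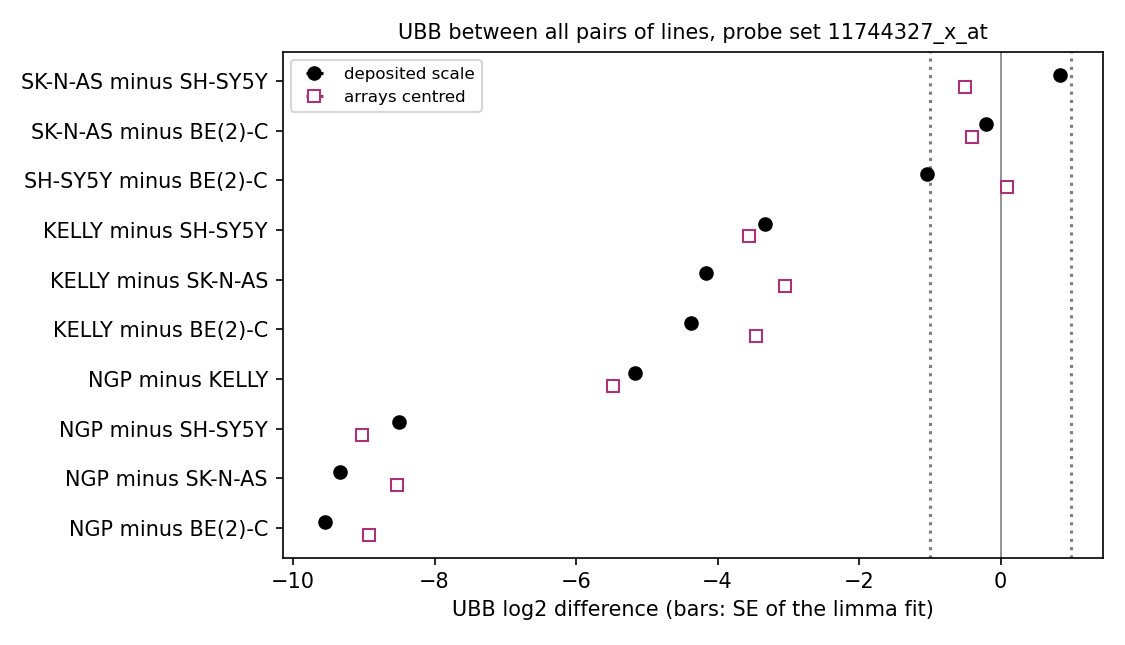
UBB log2 difference between all 10 pairs of lines on probe set 11744327_x_at, on the deposited scale (filled circles) and with each array centred (open squares); bars are SEs of the fit and are shorter than the symbols, and dotted lines mark a difference of 1. The 4 pairs with NGP lie from -9.54 to -5.17 on the deposited scale and the 3 pairs of KELLY with a bright line from -4.37 to -3.33, and the 3 pairs of bright lines lie within 1.04 of 0.

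As neighbours of UBB on chromosome 17, the 10 tested genes on each side of it in the RefSeq order were taken. By the rule that all 4 contrasts of NGP with another line be called, 146 of 12721 genes were lower (1.15%) and 213 higher (1.67%) in NGP on the deposited scale. Of the 20 neighbours 0 were lower and 0 higher in limma, and at an unadjusted p under 0.05 in all 4 contrasts 0 were lower and 3 higher, against 5.8% and 5.61% of all genes. By the same kind of rule for KELLY against SK-N-AS, SH-SY5Y and BE(2)-C, 0 of the 20 were lower and 0 higher, against 3.03% and 1.05% of all genes. At an unadjusted p under 0.05 (limma) 1 was lower and 0 higher, against 19% and 2.96% of all genes. At the low shares of called genes, a count of 0 among 20 says little about the neighbours. These counts of called neighbours were also 0 on centred arrays, where the unadjusted counts were 0 lower and 4 higher in NGP, against 10.3% and 10.9% of all genes, and 1 lower and 8 higher in KELLY, against 14% and 16.8%.

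Upstream, CENPV, a protein of the centromere and the nearest tested gene, had an intensity of 2327 ± 91.7 in NGP and line means from 869 ± 61.5 (SK-N-AS) to 2806 ± 271 (BE(2)-C) elsewhere. PIGL, an enzyme of GPI anchor synthesis, stood at 53.2 in NGP and from 47.7 to 111 in the others. TTC19, an assembly factor of respiratory complex III, stood at 1520 in NGP and from 485 to 1223 in the others, and ZSWIM7, which acts in homologous recombination, at 663 against 220 to 1084. On the deposited scale none of these 4 was dimmest in NGP.

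Downstream, TRPV2, a cation channel, stood at 39.3 in NGP and from 31.5 to 100.1 in the others. SNHG29, a host gene of small nucleolar RNAs, stood at 10457 in NGP and from 5510 to 15228 in the others. ZNF287, a zinc finger protein, stood at 95.1 against 73.4 to 232, and TNFRSF13B, a receptor of B cells, at 159 against 100.5 to 252. On the deposited scale NGP was the lowest line for none of these genes, while on centred arrays TRPV2 was lowest in NGP, by -0.11 from the next line. On centred arrays the 20 neighbours ran from -0.48 (CDRT4) to 1.58 (PLD6) for NGP minus the mean of the other 4 lines, with a median of 0.23 against 0.04 over all tested genes and -7.99 for UBB. For KELLY minus the mean of SK-N-AS, SH-SY5Y and BE(2)-C they ran from -0.49 (TRIM16) to 1.32 (PLD6), against -3.35 for UBB.

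**Figure D3:**
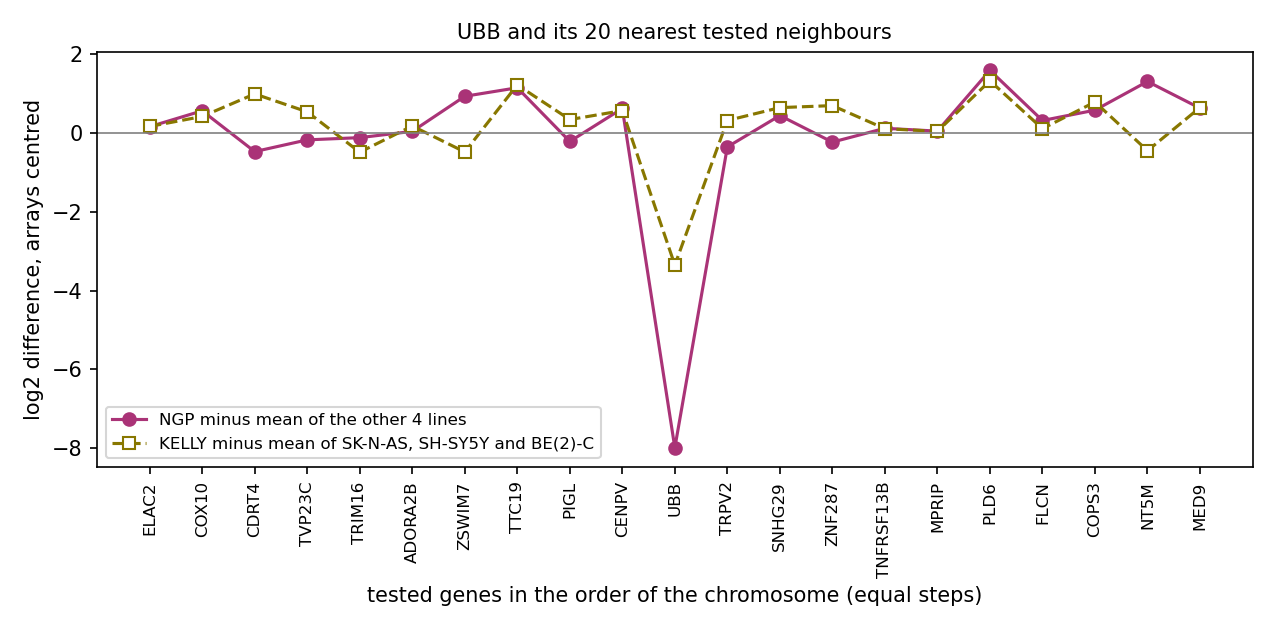
Log2 difference on centred arrays (vertical axis) of UBB and its 20 nearest tested neighbours in chromosome order (horizontal axis, equal steps), for NGP minus the mean of the other 4 lines (filled circles) and for KELLY minus the mean of SK-N-AS, SH-SY5Y and BE(2)-C (open squares). UBB lies at -7.99 and -3.35 and the neighbours lie between -0.49 and 1.58.

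Genes of the ubiquitin system lists were called lower in NGP at a share near that of all tested genes. The 9 lists, which include genes of heat shock and protein stress, held 209 genes besides UBB. Of these, 189 had a probe set of their own and 187 were tested. In NGP 2 of the 187 were lower than in all 4 other lines and 0 were higher by the limma rule, against 1.15% and 1.67% of all tested genes. On centred arrays the counts were again 2 and 0, against 1.35% and 1.86%. At shares this low, a count of 0 in a single list says little about that list. At an unadjusted p under 0.05 in all 4 contrasts 9 were lower and 3 higher, against 5.8% and 5.61% of all genes. On centred arrays these were 26 and 13, against 10.3% and 10.9%. NGP minus the mean of the other lines had a median of -0.22 over the 187, against -0.12 over all tested genes, and of -0.07 against 0.04 on centred arrays.

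HSPB1, the small heat shock protein HSP27, was one of the genes lower in NGP. Its mean intensity was 243 ± 29.0 for NGP, 683 ± 65.7 for SH-SY5Y, 1157 ± 52.7 for KELLY, 2034 ± 127 for BE(2)-C and 6834 ± 284 for SK-N-AS (SD, n = 3 each). Its smallest difference was -1.49 on the deposited and -2.01 on the centred scale, both from SH-SY5Y (limma, highest adjusted p over the 4 contrasts 9.21e-14 and 5.85e-15). Its probe set also carries the suffix _x_at.

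USP4, a deubiquitinase of the nucleus and cytoplasm, was the other. It stood at 248 ± 11.2 in NGP and from 594 ± 4.47 in SH-SY5Y to 760 ± 8.15 in BE(2)-C (SD, n = 3 each), with a smallest difference of -1.26 (limma, highest adjusted p = 5.09e-14). On centred arrays its smallest difference was -0.77 and it was not called. There UCHL5, a deubiquitinase bound to the proteasome, was called in its place. Its smallest difference on centred arrays was -1.10 (limma, highest adjusted p = 7.22e-13). As deposited, UCHL5 had 458 ± 26.5 in NGP against 702 ± 47.6 in SH-SY5Y and more elsewhere, with a smallest difference of -0.61 on that scale. UCHL5 was named after its values were seen.

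Among 8 tested E1 enzymes and relatives, 0 were called, and the largest differences of NGP from the mean of the others were -0.58 for MOCS3, which acts in tRNA thiolation, and -0.42 for UBA3, of the NEDD8 pathway. Of 27 tested E2 enzymes 0 were called. UBE2E2 stood at 1876 ± 15.4 in NGP, 1114 ± 45.7 in KELLY and from 171 ± 9.79 in BE(2)-C to 545 ± 42.1 in SH-SY5Y, 0.75 above KELLY on the log2 scale. Without KELLY among the compared lines UBE2E2 was called higher in NGP, as were 2.3% of all genes on the deposited and 3.14% on the centred scale, where UBE2E2 was called too. UBE2H stood at 414 ± 91.3 in NGP, against 548 ± 85.8 in SH-SY5Y and more elsewhere.

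Of 13 tested ubiquitin-like modifiers 0 were called. GABARAPL1, of the autophagy machinery, stood at 47.4 ± 6.13 in NGP and 51.8 ± 1.41 in SH-SY5Y against 120 to 175 elsewhere, and other probe sets of it gave differences between -0.70 and -0.02. ISG15, an interferon-induced modifier, stood at 75.7 ± 8.11 in NGP against 770 ± 4.05 in SK-N-AS. Its means elsewhere lay between 57.0 ± 4.07 and 117 ± 11.2. Of 54 tested deubiquitinases only USP4 was called lower on the deposited scale and 0 higher.

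The proteasome showed no call in NGP. Over 14 subunits of its 20S core the median of NGP minus the mean of the others was -0.11 on centred arrays, with a range of -0.43 to 0.47, and PSMA5 stood at 1998 ± 108 in NGP, within the span from 1224 ± 114 (SH-SY5Y) to 5773 ± 260 (SK-N-AS). Over 16 subunits of the 19S cap the median was -0.17. PSMD12 of the cap stood at 1115 ± 101 in NGP and 1078 ± 69.2 in SH-SY5Y, with 1724 ± 257 or more elsewhere, and the ubiquitin receptor ADRM1 at 1481 ± 120 and 1357 ± 87.9. For PSMD12 the difference of NGP from the mean of the others was -1.11 on the probe set used and between -1.28 and -0.17 on its other probe sets. PSMB4 of the core gave 4800 ± 339 in NGP, 4378 ± 596 in SH-SY5Y and 4513 ± 289 in KELLY.

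Of 18 tested ubiquitin receptors and shuttles 0 were called in NGP. SQSTM1 or p62, an autophagy receptor for ubiquitinated cargo, stood at 623 ± 67.1 in NGP, 601 ± 44.9 in SH-SY5Y and 597 ± 5.83 in KELLY, below 2287 ± 44.4 in BE(2)-C and 8512 ± 448 in SK-N-AS. TOLLIP, an adaptor that binds ubiquitin, stood at 110 ± 10.8 in NGP and 151 ± 2.48 in KELLY. Other TOLLIP probe sets gave differences of NGP from the mean of the others of -0.39 and -0.63, and on these NGP was not the lowest line. Of 27 tested genes of heat shock and protein stress only HSPB1 was called lower. Of 10 tested regulators, which include enzymes that place or remove ubiquitin on histones H2A and H2B, 0 were called. MYSM1, a deubiquitinase of histone H2A, stood at 284 ± 26.0 in NGP, 300 ± 39.0 in SK-N-AS and 105 ± 23.9 to 172 ± 5.13 elsewhere, and its other 3 probe sets gave differences from -0.10 to 0.18. PCGF1, of a Polycomb complex that ubiquitinates H2A, stood at 129 ± 11.6 in NGP.

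**Figure D4:**
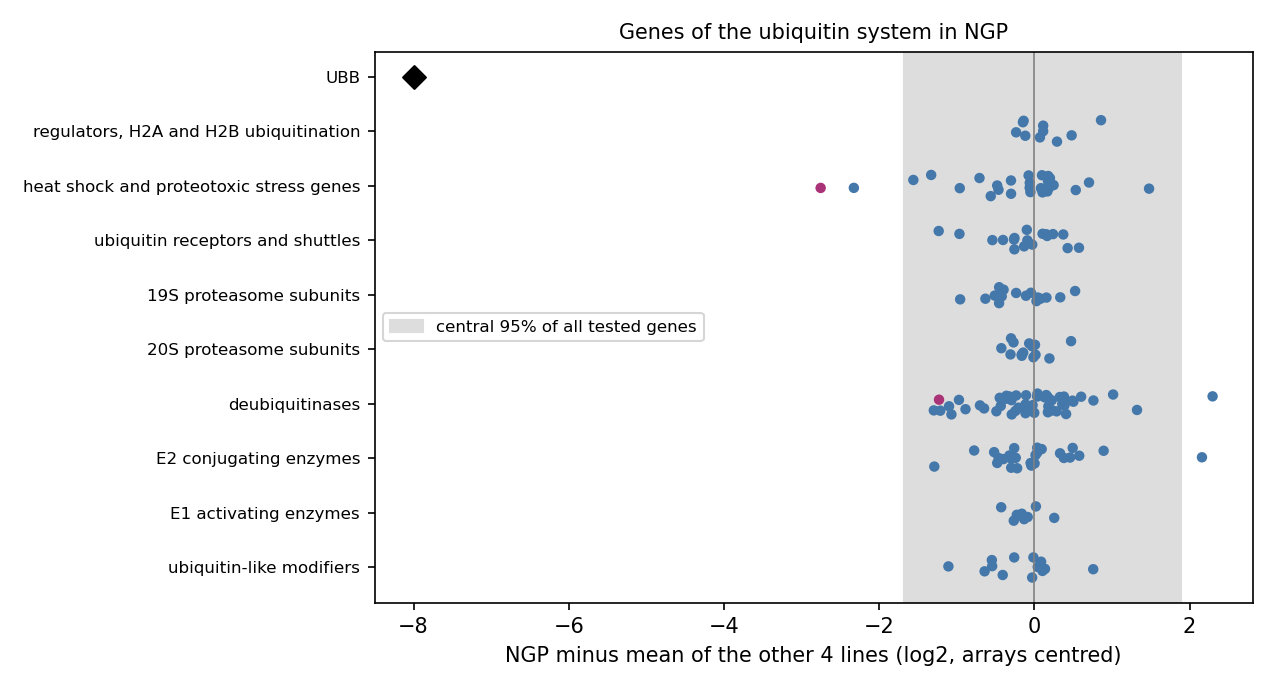
NGP minus the mean of the other 4 lines on centred arrays (log2, horizontal axis) for 187 tested genes of 9 lists and for UBB (diamond). Purple points are called by the limma rule on this scale, HSPB1 and UCHL5; the grey band spans the central 95% of all tested genes, from -1.68 to 1.89, and UBB lies at -7.99.

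In KELLY, 3 of the 187 genes were lower than in SK-N-AS, SH-SY5Y and BE(2)-C and 1 was higher by the limma rule on the deposited scale, against 3.03% and 1.05% of all tested genes. The lower genes were UBE2G2, an E2 enzyme of the endoplasmic reticulum, UBE2N, which makes chains linked through lysine 63, and TSG101, a ubiquitin-binding subunit of ESCRT-I. UBE2G2 stood at 432 ± 22.4 in KELLY and from 1019 ± 69.2 to 2086 ± 62.1 in those lines, UBE2N at 732 ± 36.7 against 1564 ± 44.6 or more, and TSG101 at 417 ± 20.6 against 1070 ± 41.0 or more (SD, n = 3 each). The higher gene was UBE2E2. On centred arrays, where 1.81% of all genes were lower and 2.16% higher, UBE2G2 was the only lower gene and SESN2, a stress-induced gene, the only higher one. All but UBE2E2 of these 5 genes were named after their values were seen.

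Line by line on centred arrays, 13.9% of the 187 genes were called lower and 3.74% higher in NGP than in SK-N-AS, where 14.3% and 15.8% of all genes were. Against SH-SY5Y 4.28% were lower and 4.28% higher, and of all genes 8.38% and 7.79%. Against BE(2)-C 6.95% were lower and 5.35% higher, and of all genes 8.96% and 10.3%. Against KELLY 5.35% were lower and 2.14% higher, and of all genes 7.18% and 6.89%. On the deposited scale 51.3% were lower in NGP than in SK-N-AS and 32.6% than in BE(2)-C, and of all genes 36.5% and 26.3%. Against SH-SY5Y and KELLY 1.6% and 4.28% were lower there, and of all genes 4.17% and 4.47%. In each contrast, on both scales, the share called higher was below that of all genes. The contrasts share the NGP arrays, and the shares describe the lists with no test.

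The genes whose pattern was closest to UBB over the 15 arrays were found by Pearson correlation of log2 values. On the deposited scale they were AS3MT, an arsenite methyltransferase (r = 0.98), IAH1, an esterase (0.98), MYD88, an adaptor of Toll-like receptors (0.98), GSPT2, a translation termination factor (0.98), and TMEM168 (0.97), and 29 genes exceeded 0.95. TMEM168 stood at 15.9 ± 0.758 in NGP, 160 ± 13.9 in KELLY and 310 ± 14.4 or more in the other lines, and IAH1 at 37.5 ± 5.06, 416 ± 13.6 and 610 ± 25.7 or more (SD, n = 3 each). KELLY minus the mean of the bright lines ran from -1.88 (GSPT2) to -1.06 (AS3MT) in these 5 genes and was -3.96 in UBB. On centred arrays the closest were WDR76, H2AZ2, C19orf12, CHMP2A and CEP19, each with r = 0.98, and 44 genes exceeded 0.95. H2AZ2, a histone variant gene, had a centred difference of NGP from the other lines of -0.74, and WDR76 of -2.23, against -7.99 in UBB. The likeness measure does not take the size of a difference into account. It rests in part on the NGP values of UBB, which chose the gene and lie below the filter. The 5 genes of the deposited scale also lay below the filter in NGP, from 15.9 (TMEM168) to 37.5 (IAH1). Of the centred list, WDR76 (42.8) and CEP19 (73.5) did so too, and the others did not. The 15 points are 3 arrays of each of 5 lines, and genes on an array share its brightness.

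**Figure D5:**
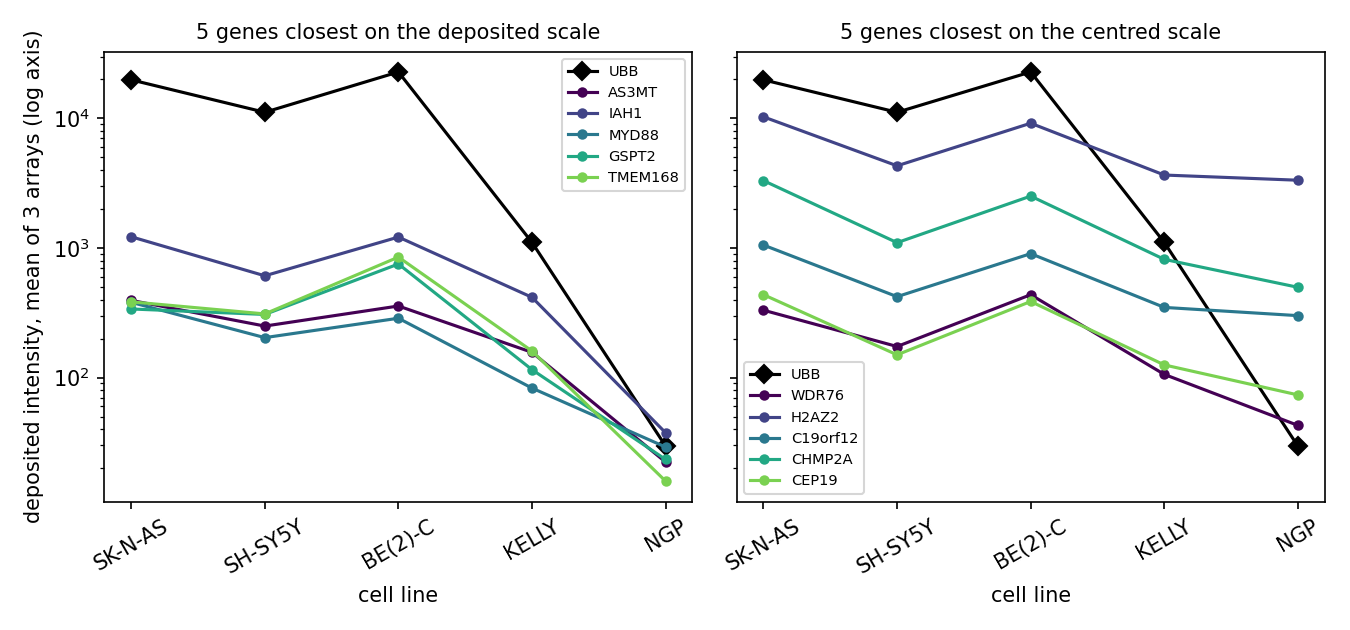
Mean deposited intensity over 3 arrays (log axis) in each cell line for UBB and for the 5 genes with the highest correlation with it on the deposited scale (left) and on centred arrays (right). UBB falls from 22832 in BE(2)-C to 1103 in KELLY and 29.6 in NGP, while TMEM168 goes from 851 to 160 and 15.9.

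Most neuroblastoma markers were lowest in SK-N-AS. Of 9 with a probe set, all 9 exceeded the filter in NGP, KELLY, SH-SY5Y and BE(2)-C and 7 in SK-N-AS. There CHGA (53.3) and CHGB (40.6) were below it, and STMN2 (83.2) and DBH (96.0) were little above it. The markers not lowest in SK-N-AS were TH (225) and HAND2, which was highest there (11583). Of the other lists, the summed mesenchymal, epithelial and leukocyte markers were highest in SK-N-AS, at 38731, 10048 and 1128, and the summed endothelial markers in BE(2)-C, at 489. In NGP these sums were 3623, 204, 272 and 218, and in KELLY 842, 139, 187 and 171. Above the filter in NGP were 5 of 8 mesenchymal, 0 of 4 epithelial, 0 of 4 endothelial and 1 of 5 leukocyte markers, the last being HBB, a haemoglobin gene of red cells, at 92.8. The leukocyte gene PTPRC stood at 14.1 in NGP, and EPCAM (74.7) and LYZ (67.7) were highest in NGP of all lines but below the filter. In KELLY 3 mesenchymal markers and 0 of the others exceeded it. Over the tested genes, r was at least 0.993 between arrays of the same line and at most 0.892 between lines, and no pair of arrays held identical values.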

How the data were processed

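Total RNA of 5 cell lines was measured on 15 arrays, and each value is a linear intensity deposited by the authors for a probe set. Per the submitters' processing notes, MAS5 was used, whose version and scaling were not given in the sources used here. Per the labels' protocols, ERCC controls were added at lysis. The array medians differ.

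Of 49494 probe sets, 45277 named 1 gene. The probe set with the highest mean of log2(intensity + 1) stood for a gene, and 12721 of 18244 genes, those whose mean in at least 1 line reached the median log2 value, were tested in limma 3.58.1 (R 4.3.3) with 1 mean per line, an intensity-dependent prior and Benjamini-Hochberg adjustment within each of 10 contrasts. The number of arrays limits the precision. UBB was given by both probe sets and by every array. Genes named were the called members of each list (otherwise the 2 with the largest difference), the 4 nearest neighbours on each side and the 5 genes most like UBB. The rule for NGP was also run on simulated arrays whose lines differed only in genes changed in NGP. That run did not cover the brightness differences between the real lines. Alternatives were other scales, pseudocount, filter, probe sets, prior, each array left out and a replicate block. Over 30 same-numbered pairs of arrays of different lines, deviations from line means correlated from -0.23 to 0.23, with 5 pairs over 0.1. These values gave no clear pairing by number, and shared handling of arrays was not tested. RefSeq symbols (GRCh38.p14) matched 12713 tested genes and were used for names and gene order. One planned comparison is not reported here. UBB and the lists were chosen with earlier results of these data known.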

Additional observations from a re-analysis of the deposited data

How the results depend on the processing

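NGP minus the mean of the other 4 lines for UBB was -8.14 on probe set 11744327_x_at and -8.66 on 11732126_x_at. It was -7.99 and -8.51 on centred arrays and -7.57 and -7.85 with a pseudocount of 16. It ranged from -8.17 to -8.12 and from -8.78 to -8.55 with 1 array left out. KELLY stayed called lower than each of the 3 bright lines in UBB under every alternative run, with values from -4.41 to -3.05. The order of the bright lines did not hold. SK-N-AS minus SH-SY5Y was 0.83 and became -0.50 on centred arrays and -0.27 after quantile normalization. SH-SY5Y minus BE(2)-C was -1.04 and became 0.10 on centred arrays, -0.89 with equal ERCC medians and -0.066 after quantile normalization, and it ranged from -1.10 to -0.96 with 1 array left out. The causes were not tested. The genes lower in KELLY than in the 3 bright lines numbered 385, 230 on centred arrays and 235 where all probe sets of a gene were averaged. Ubiquitin system genes lower in KELLY numbered 3, and 1 on centred arrays, after quantile normalization and without _s_at and _x_at probe sets. Those lower in NGP numbered 2, and 1 without those probe sets, which leaves out HSPB1. They numbered 3 with equal ERCC medians and from 2 to 3 with 1 array left out. Those higher in NGP numbered 0, and without KELLY among the compared lines 1 (UBE2E2, against 2.3% of all genes) or, on centred arrays, 3 (UBE2E2, OTUD3 and DDIT3, against 3.14%), chosen after seeing the data. USP4 was not called on centred arrays, where its smallest difference was -0.77, or after quantile normalization. Its difference from the mean of the other 4 lines was -1.30 under both. The replicate block changed no call; KELLY minus SK-N-AS stayed at -4.17 with adjusted p = 2.82e-24 (limma). UBB has no value without _s_at and _x_at probe sets, since both of its probe sets are _x_at. Values of UBB in NGP lie below the filter, where signal over background limits any fold.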
